A study of Mus musculus with 6 samples.

Results

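The PAR bZIP transcription factors Dbp, Tef and Hlf, their antagonist Nfil3, and the clock output genes Ciart, Usp2, Bhlhe40, Bhlhe41, Wee1 and Por were examined in mouse lung RNA. These 10 genes were taken by symbol from a table of 41388 genes, and each symbol matched a single gene. Lungs were taken at Zeitgeber time 7 (ZT7), which is 7 h after lights on, and each library is labelled as a separate mouse. The study describes adult mice of both sexes for the organs it collected over a day. Its account of the ZT7 lungs gives neither age nor sex. WT mice were C57BL/6J. KO mice were of the B6.129S7-Zpbp2tmZuk/Mmjax strain, which lacks the 5′ part of Zpbp2 (exons 1 to 3) on a C57BL/6J background, and were maintained in the same colony as the WT mice. The lungs were sequenced whole, so fewer cells of a type and less RNA per cell cannot be told apart. The purpose of the study was to learn whether the Zpbp2 region and the circadian clock influence each other. Here the question is how the genes that carry the clock's rhythm out to the rest of the cell differed between KO and WT lungs at this single time point.

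The libraries, 3 per genotype, are called WT1, WT2 and WT3 and KO1, KO2 and KO3 and held 59134950 to 71354388 counts each. Zpbp2 had 20, 15 and 7 counts in WT1 to WT3 and 1, 0 and 0 in KO1 to KO3. The lung markers Sftpc, Sftpb, Scgb1a1, Ager, Foxj1 and Pecam1 were all detected, and their levels summed to 42392 to 45992 CPM in WT and 60043 to 69408 CPM in KO, where CPM is a gene's counts per 1000000 of the scaled library size. KO2 and KO3 carry the names of separate mice but differed by little more than counting noise. Over bands of summed count that start at 20, the variance between KO2 and KO3 was 1.71 to 3.36 times what counting alone gives. In the other pairs of a genotype it rose from 1.86 to 3.79 times in the lowest band to 36.0 to 156 times in the highest. KO2 and KO3 were therefore summed as 1 sample, which left 2 KO samples against 3 WT samples, and their mean is 1 replicate in each KO mean. WT3 and KO1 held transcripts of squamous epithelium, at 4652 and 8911 CPM summed over 12 genes, against 8.81 to 14.7 CPM in the other libraries. Results are therefore also given within these sets of libraries.

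In the circadian clock, the activators CLOCK and BMAL1 bind E-box sequences and switch on their own repressors, the period and cryptochrome genes, together with output genes. DBP, TEF and HLF are proline and acidic amino acid-rich (PAR) basic leucine zipper activators that bind D-box sequences, and NFIL3 (E4BP4) is a basic leucine zipper repressor of the same sites. Dbp is a direct E-box target whose RNA is known to peak by day in mouse peripheral organs, while Nfil3 is repressed by the REV-ERB receptors, of which Nr1d1 encodes the alpha form, through response elements called ROREs, and is known to peak at the opposite phase. CIART (CHRONO), BHLHE40 (DEC1) and BHLHE41 (DEC2) repress CLOCK and BMAL1, and USP2, WEE1 and POR link the clock to protein deubiquitination, cell division and microsomal electron transfer.

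RefSeq promoter windows of 250 bases before to 50 after a start site (GRCm38.p6) were found for 8 of the 10 genes, with 9 start sites, and were searched on both strands for the E-box CACGTG, its variant CACGTT, the D-boxes TTATGTAA and TTACGTAA, and AGGTCA, the core of the RORE. CACGTG was found in Tef, Ciart and Bhlhe41, against 8.09% of all genes with a window. Ciart held it 3 times, 116, 58 and 44 bases before the start, and 29 of 32851 windows (0.0883%) held 3 or more. AGGTCA was found in Nfil3 alone among the 8, against 18.1% of all genes. CACGTT (5.44% of all genes) and the D-boxes (1.11% and 0.126%) matched none of the 8. These matches are descriptions of the sequence, and no binding was measured. The stretches with a match are shown because E-boxes and ROREs are the sequences named above for the clock. A match to AGGTCA, which is only the core of the RORE, does not show a RORE. In the GENCODE annotation the Ciart stretch stops where the gene begins. The Bhlhe41 stretch ends just inside its gene, and the Tef and Nfil3 stretches lie wholly inside theirs. All stretches are written 5′ to 3′ on the strand of the gene, with the matched bases in capitals. They lie at chr3:95882252-95882478 (minus strand) for Ciart, chr15:81802534-81802563 and chr15:81811264-81811293 (plus strand) for the starts Tef 1 and Tef 2, chr6:145865556-145865585 (minus strand) for Bhlhe41 and chr13:52981034-52981063 (minus strand) for Nfil3.
Ciart: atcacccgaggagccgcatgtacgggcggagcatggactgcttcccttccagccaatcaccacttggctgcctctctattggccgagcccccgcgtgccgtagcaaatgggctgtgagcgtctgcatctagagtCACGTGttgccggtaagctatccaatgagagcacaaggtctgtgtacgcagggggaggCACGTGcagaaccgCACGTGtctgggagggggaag
Tef 1: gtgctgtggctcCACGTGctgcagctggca
Tef 2: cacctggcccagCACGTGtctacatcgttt
Bhlhe41: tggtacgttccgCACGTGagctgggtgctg
Nfil3: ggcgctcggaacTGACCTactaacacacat

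Of the 10 genes, 9 were higher and 1, Nfil3, was lower in KO by the estimate, with a median log2 fold change of 0.42, against 0.02 over all 18660 genes tested. Only Dbp passed the edgeR quasi-likelihood test after Benjamini-Hochberg adjustment over all genes (adjusted p of at most 0.05). Of all tested genes 2.28% passed, 1.38% as higher and 0.906% as lower in KO. Before adjustment 7 of the 10 had a p of at most 0.05, as had 27.3% of all tested genes. The genotypes did not overlap in 7 of the 10 (40.8% of all tested genes), with KO above WT in 6 (20.0%) and below in 1 (20.7%). The genes with overlapping genotypes were Tef, Usp2 and Wee1. With the 6 libraries kept separate, 7 of the 10 passed, against 18.9% of all genes. DESeq2 also called 7 of the 10, against 21.9% of the 17744 genes to which it gave an adjusted p, and the exact test of edgeR called 1, Dbp, against 1.12%. All 10 passed the filter on low counts, and the lowest count of any of them in a library was 394, for Nfil3 in KO3.

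**Figure D1:**
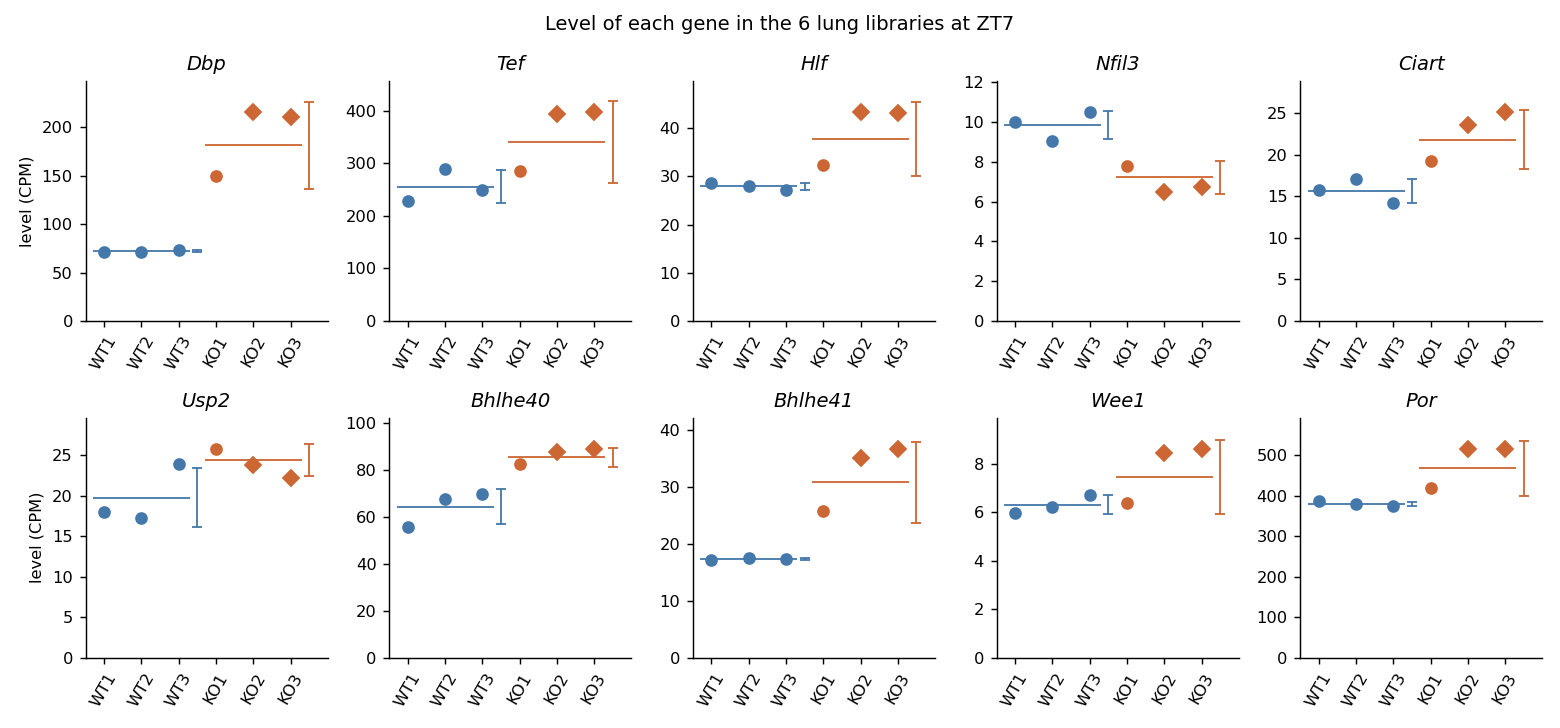
Level in CPM of each of the 10 genes in each library. WT libraries are blue, KO1 is an orange circle, and KO2 and KO3, counted as 1 sample, are orange diamonds. Horizontal lines are genotype means and bars are the SD (n = 3 WT samples and 2 KO samples). Dbp lies between 71.3 and 73.5 CPM in the WT libraries and between 149.95 and 215.6 CPM in KO, and Nfil3 is the gene with KO below WT.

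Dbp (ENSMUSG00000059824, chromosome 7, 45705088 to 45710203, plus strand) showed the largest difference of the 10. Its level was 71.6, 71.3 and 73.5 CPM in WT1 to WT3 and 149.95, 215.6 and 211.2 CPM in KO1 to KO3. The WT libraries were nearly equal, and every KO library lay far above them. WT averaged 72.1 ± 1.19 CPM (SD, n = 3) and KO 181.7 ± 44.8 CPM (SD, n = 2). The log2 fold change was 1.34 (SE 0.15, 95% interval 0.95 to 1.73, edgeR adjusted p 0.0446). Dbp was higher in KO under all 17 alternative settings, by 1.05 to 1.56, and passed in 12 of them. It did not pass when length and GC content of the genes were corrected for (log2 fold change 1.16, adjusted p 0.0737) or without WT1, WT2 or WT3 (adjusted p 0.170, 0.189 and 0.123), and in each of these settings 0 genes of the table passed. Across 18516 genes, which are not independent replicates, the log2 fold change correlated with gene length (Spearman's rho -0.33) and GC content (0.26), and the longest transcript of Dbp had the highest GC content of the 10 genes (61.6%). Dbp also did not pass without KO2 and KO3 (1.05, adjusted p 0.0835). Exons of Dbp overlap those of Sphk2 on the opposite strand, and whether counting used the strand is not stated. Sphk2 itself averaged 51.0 ± 3.62 CPM (SD, n = 3) in WT, and in KO it averaged 55.1 ± 4.22 CPM (SD, n = 2), with an adjusted p of 0.433.

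Tef (ENSMUSG00000022389, chromosome 15, 81802421 to 81826863, plus strand) was the most abundant of the 3 PAR bZIP factors in CPM. Its level was 227.8, 289.0 and 249.98 CPM in WT1 to WT3 and 285.6, 394.4 and 396.7 CPM in KO1 to KO3. KO1 lay inside the WT range, below WT2, and KO2 and KO3 lay above it. The log2 fold change was 0.42 (SE 0.17, 95% interval -0.02 to 0.86, adjusted p 0.198). Hlf (ENSMUSG00000003949, chromosome 11, 90336536 to 90390895, minus strand) was at 28.7, 27.9 and 27.2 CPM in WT1 to WT3 and 32.3, 43.3 and 43.1 CPM in KO1 to KO3, so that the genotypes did not overlap. Its log2 fold change was 0.44 (SE 0.13, 95% interval 0.10 to 0.78, adjusted p 0.118). Neither passed the test over all genes. Hlf passed with the 6 libraries kept separate (adjusted p 0.0323).

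Nfil3 (ENSMUSG00000056749, chromosome 13, 52967209 to 52981073, minus strand), the repressor at the D-box, went the other way. It was at 9.997, 9.07 and 10.5 CPM in WT1 to WT3 and at 7.81, 6.49 and 6.75 CPM in KO1 to KO3. All KO libraries were below all WT libraries, with KO1 the closest. The log2 fold change was -0.45 (SE 0.12, 95% interval -0.76 to -0.13, adjusted p 0.102), and Nfil3 passed only in 3 of the 17 alternatives, with the 6 libraries kept separate, with DESeq2 and with a term for squamous transcripts.

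Ratios of counts within a library need no scaling between libraries, and 4 of them were compared. The count of Dbp was 7.17, 7.86 and 7.005 times that of Nfil3 in WT1 to WT3 and 19.2, 33.2 and 31.3 times in KO1 to KO3. The mean log2 ratio was 2.87 ± 0.09 (SD, n = 3) in WT and 4.64 ± 0.53 (SD, n = 2) in KO, so the ratio was 3.39-fold higher in KO. Summed over Dbp, Tef and Hlf, the ratio to Nfil3 was 32.8, 42.8 and 33.4 in WT1 to WT3 and 59.9, 100.6 and 96.5 in KO1 to KO3. Against Nr1d1, the count of Dbp was 0.251, 0.282 and 0.248 times as high in WT1 to WT3 and 0.3745, 0.553 and 0.544 times in KO1 to KO3. The last ratio shows that Dbp differed more between the genotypes than Nr1d1 did in every KO library. The count of Bhlhe40 was 3.25, 3.86 and 4.03 times that of Bhlhe41 in WT1 to WT3 and 3.20, 2.49 and 2.42 times in KO1 to KO3, where KO1 lay just below WT1. In all 4 ratios the genotypes did not overlap, and each exact two-sided permutation test gave p = 0.2, the smallest that 3 samples against 2 can give, so these ratios could not pass a threshold of 0.05. With only 4 ratios at that limit, the adjusted value is also 0.2.

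**Figure D2:**
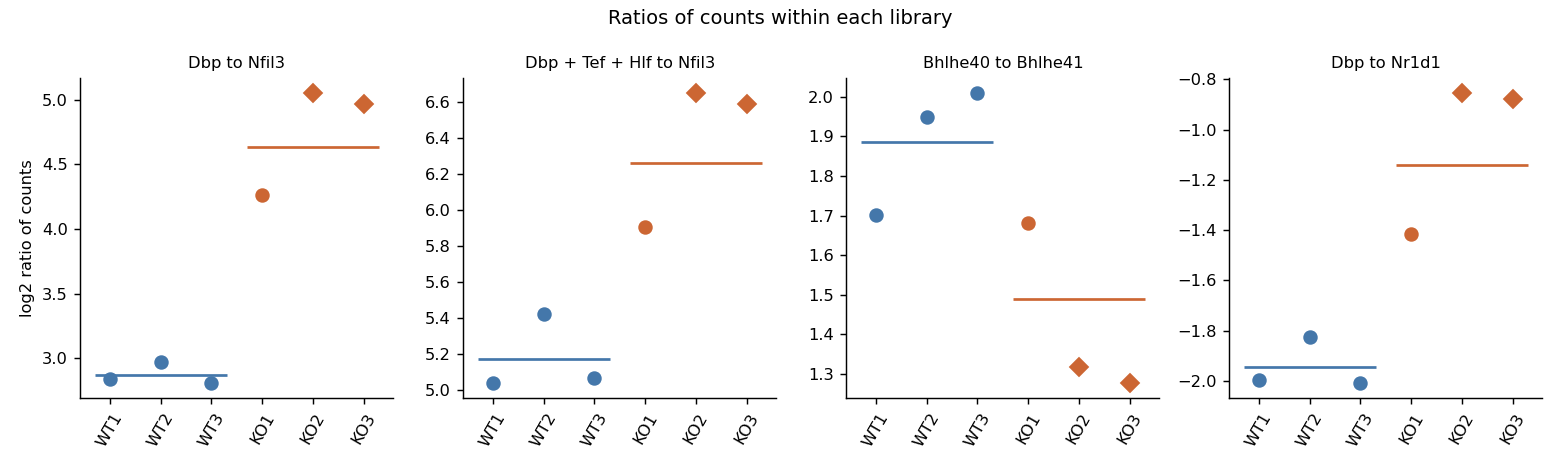
Log2 ratio of counts within each library for the 4 ratios. WT libraries are blue, KO1 is an orange circle and KO2 and KO3 are orange diamonds, and lines are genotype means with KO2 and KO3 as 1 sample. The Dbp to Nfil3 ratio is 2.81 to 2.97 in WT and 4.26 to 5.05 in KO, and the Bhlhe40 to Bhlhe41 ratio is the one that is lower in KO.

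Among the repressors of CLOCK and BMAL1, Bhlhe41 (ENSMUSG00000030256, chromosome 6, 145858243 to 145865558, minus strand) differed most. It was at 17.2, 17.5 and 17.3 CPM in WT1 to WT3 and at 25.8, 35.1 and 36.7 CPM in KO1 to KO3. The WT libraries were nearly equal (SD 0.18 CPM), and KO1 to KO3 were all higher. Its log2 fold change of 0.84 (SE 0.15, 95% interval 0.46 to 1.22) had an adjusted p of 0.0539, just over the threshold, and it passed in 6 of the 17 alternatives. Bhlhe40 (ENSMUSG00000030103, chromosome 6, 108660629 to 108666925, plus strand) was at 55.8, 67.7 and 69.7 CPM in WT1 to WT3 and at 82.6, 87.6 and 88.9 CPM in KO1 to KO3. Here the WT libraries spread and the KO libraries lay close together, with no overlap. The log2 fold change was 0.41 (SE 0.11, 95% interval 0.14 to 0.69, adjusted p 0.0910). Ciart (ENSMUSG00000038550, chromosome 3, 95878503 to 95882251, minus strand), whose promoter window holds the 3 E-boxes shown above, was at 15.7, 17.1 and 14.1 CPM in WT1 to WT3 and at 19.3, 23.6 and 25.1 CPM in KO1 to KO3. The genotypes did not overlap, and the log2 fold change was 0.48 (SE 0.14, 95% interval 0.13 to 0.84, adjusted p 0.108). Bhlhe40 and Bhlhe41 each share exon sequence with an antisense gene of the annotation, so some of their reads are uncertain.

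The remaining output genes differed less. Por (ENSMUSG00000005514, chromosome 5, 135670033 to 135735326, plus strand), the reductase that passes electrons to microsomal cytochromes P450, was at 386.0, 379.0 and 375.4 CPM in WT1 to WT3 and 419.5, 514.7 and 515.1 CPM in KO1 to KO3. The genotypes did not overlap, and the log2 fold change was 0.30 (SE 0.10, 95% interval 0.04 to 0.56, adjusted p 0.142). Usp2 (ENSMUSG00000032010, chromosome 9, 44067021 to 44095627, plus strand), a deubiquitinase, was at 18.0, 17.3 and 24.0 CPM in WT1 to WT3 and 25.8, 23.8 and 22.2 CPM in KO1 to KO3. WT3 was above KO2 and KO3, and the log2 fold change was 0.31 (SE 0.16, 95% interval -0.11 to 0.72, adjusted p 0.293). Wee1 (ENSMUSG00000031016, chromosome 7, 110122046 to 110143286, plus strand), the kinase that holds back entry into mitosis, was at 5.98, 6.23 and 6.74 CPM in WT1 to WT3 and 6.40, 8.46 and 8.62 CPM in KO1 to KO3. KO1 fell inside the WT range, and the log2 fold change was 0.25 (SE 0.16, 95% interval -0.16 to 0.66, adjusted p 0.382). The intervals of Usp2 and Wee1 span 0 and do not exclude differences as large as the estimates of Hlf or Ciart. Usp2 and Wee1 passed in none of the 17 alternatives. Exons of Tef and Usp2 also overlap those of antisense genes.

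**Figure D3:**
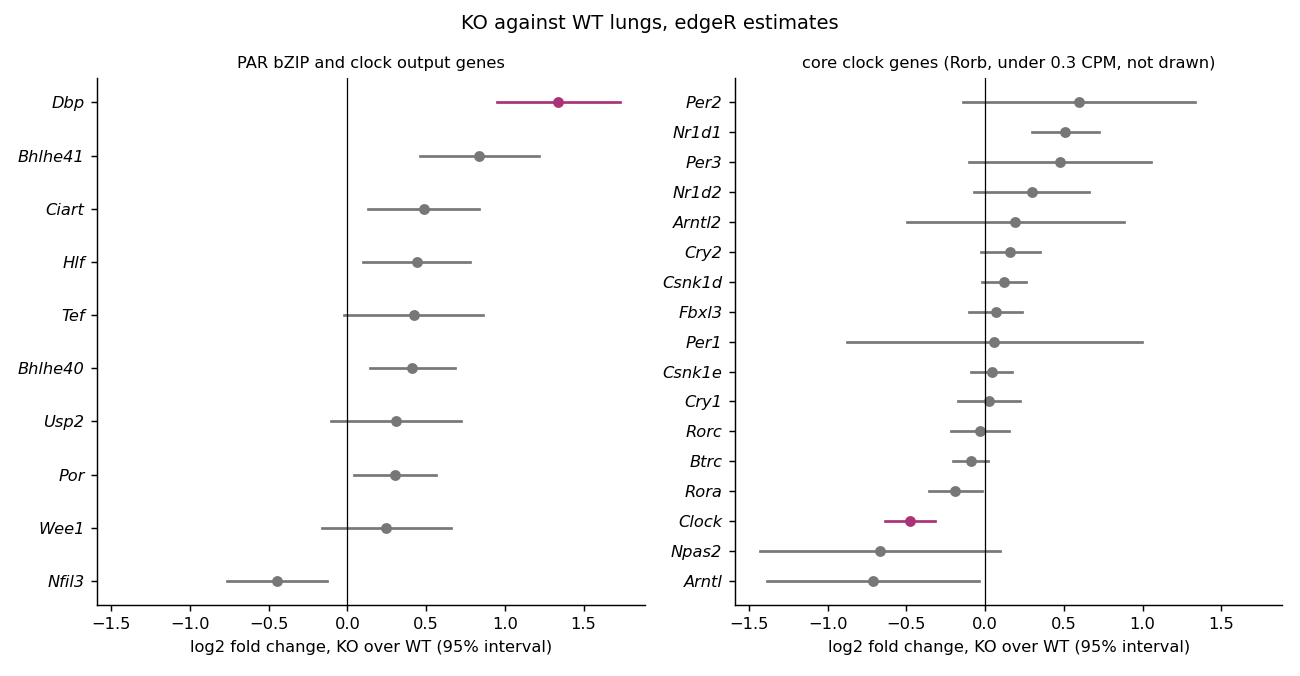
Log2 fold change of KO over WT (edgeR, points) with its 95% interval (lines) for the 10 genes on the left and for 17 of the 18 core clock genes on the right. Genes that passed the adjusted test are purple, which holds for Dbp at 1.34 and Clock at -0.48. Nfil3 at -0.45 is the only one of the 10 genes with an estimate below 0.

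Levels of different genes were compared per kb of annotated exon sequence (CPM per kb, with all annotated exons of a gene joined). In WT, Por was highest at 94.5 CPM per kb, followed by Tef at 32.5, Dbp at 24.1, Bhlhe40 at 13.7, Ciart at 6.92, Nfil3 at 4.86, Hlf at 4.18, Usp2 at 4.11, Bhlhe41 at 2.58 and Wee1 at 1.85 CPM per kb. Of these neighbours only Hlf and Usp2 had library ranges that overlapped. In KO the order was Por at 116.2, Dbp at 60.7, Tef at 43.3, Bhlhe40 at 18.2, Ciart at 9.64, Hlf at 5.65, Usp2 at 5.07, Bhlhe41 at 4.59, Nfil3 at 3.56 and Wee1 at 2.18 CPM per kb. Nfil3 stood at rank 6 in WT and rank 9 in KO, and Dbp at rank 3 in WT and rank 2 in KO. The KO ranges of Dbp and Tef overlapped, as did those of Hlf and Usp2, Usp2 and Bhlhe41, and Bhlhe41 and Nfil3. Tef has 7.87 kb of annotated exon sequence, the most of the 10, so its level per kb depends on which of its transcripts the lung uses.

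The KO samples differed from WT by unequal amounts. For all 10 genes KO1 and the pair KO2 and KO3 lay on the same side of the WT mean, which held for 69.6% of all tested genes. In 9 of the 10 genes the distance was larger for KO2 and KO3 than for KO1, with Usp2 the exception, and this was so for 43.8% of all tested genes. It was not particular to the 10. It also held for the core clock genes compared below, with Arntl2, Csnk1d, Csnk1e and Nr1d1 the exceptions. For Per2 the log2 distances were 0.07 in KO1 and 0.97 in KO2 and KO3, and for Nr1d1 0.53 and 0.48. On the log2 scale Dbp was 1.06 above the WT mean in KO1 and 1.56 above it in KO2 and KO3, and Bhlhe41 was 0.57 and 1.05 above. For Tef these distances were 0.16 and 0.63, and for Hlf 0.21 and 0.63. KO1 was thus the closer to WT among these genes. For Bhlhe40 the distances were 0.36 and 0.45. Within the libraries that held squamous transcripts, KO1 was above WT3 by 1.03 on the log2 scale for Dbp, 0.58 for Bhlhe41 and 0.45 for Ciart, and below it by -0.43 for Nfil3. Within the other libraries, KO2 and KO3 were above WT1 and WT2 by 1.58, 1.05 and 0.57 for the same 3 genes and differed by -0.52 for Nfil3. The direction was the same in both sets for 9 of the 10 genes, and Wee1 was the exception, at -0.07 and 0.48. These values compare 1 KO sample with 1 or 2 WT samples and have no test.

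**Figure D4:**
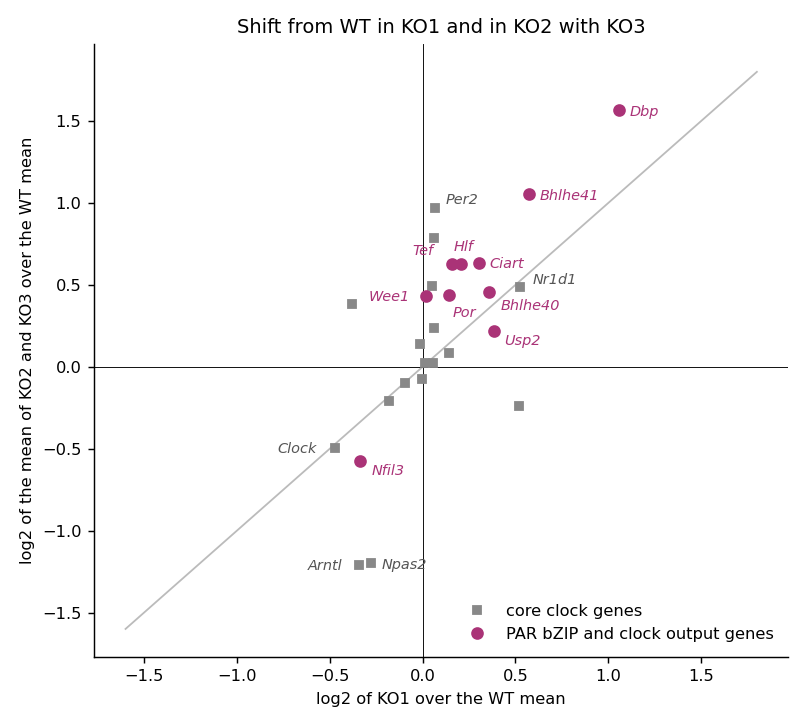
Log2 distance from the WT mean in KO1 (horizontal axis) and in the mean of KO2 and KO3 (vertical axis) for the 10 genes (purple circles) and 17 of the 18 core clock genes (grey squares), with the diagonal of equal distance. Dbp sits at 1.06 and 1.56 and Nfil3 at -0.34 and -0.57, and all of the 10 genes but Usp2 lie farther from 0 on the vertical than on the horizontal axis.

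The core clock genes that act on or with these outputs were compared through a list of 18, none of them among the 10. All 18 were tested, 12 were higher and 6 lower by the estimate, and 1, Clock, passed. Their median log2 fold change was 0.06, against 0.42 for the 10 output genes and 0.02 for all genes. This median hides shifts in both directions. The 12 higher genes included Per2 at 0.60 (SE 0.29), Per3 at 0.47 (SE 0.23) and Nr1d2 at 0.30 (SE 0.14). The 6 lower genes included Npas2 at -0.67 (SE 0.30). None of these genes passed. Clock, which encodes the E-box activator, was at 78.9, 89.2 and 83.9 CPM in WT1 to WT3 and 60.6, 60.8 and 58.5 CPM in KO1 to KO3. Its libraries did not overlap, and its log2 fold change was -0.48 (SE 0.06, adjusted p 0.0446). The most abundant of the list, Nr1d1, was at 285.7, 252.7 and 295.8 CPM in WT1 to WT3 and 400.4, 389.6 and 388.5 CPM in KO1 to KO3, a difference of 0.51 on the log2 scale (SE 0.08, adjusted p 0.0512). Arntl, which encodes BMAL1, was at 29.5, 24.8 and 28.3 CPM in WT1 to WT3 and at 21.7, 11.3 and 12.6 CPM in KO1 to KO3 (log2 fold change -0.71, SE 0.26, adjusted p 0.167). In Arntl, too, KO1 lay between WT and the pair KO2 and KO3. Clock also did not pass with the length and GC correction, with the exact test, without any of WT1, WT2, WT3 or KO1, or without both KO2 and KO3.

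Genes further along these routes were described through 5 lists. Their counts stand beside 27.3% of all tested genes under 0.05 before adjustment and 2.28% called by edgeR, 21.9% by DESeq2 and 1.12% by the exact test. Of 9 genes listed as D-box targets, mainly of drug and haem metabolism in liver, 4 passed the filter on low counts, 2 of them higher and 2 lower, and edgeR called 0, with 1, Alas1, under 0.05 before adjustment. DESeq2 called 1, also Alas1. Alas1, the first enzyme of haem synthesis and the most abundant of them, was at 292.6, 331.1 and 309.5 CPM in WT1 to WT3 and 342.0, 515.9 and 518.1 CPM in KO1 to KO3 (log2 fold change 0.47, SE 0.18, adjusted p 0.182). Every KO library exceeded the WT range, with KO1 the closest to it. Cyp2c29, Cyp2c37 and Cyp2c50 had 0 counts in all WT libraries, and Cyp2c37 also in all KO libraries, while Cyp2c29 and Cyp2c50 had counts in at least 1 KO library. Of 10 other genes known to cycle in many organs, 7 were higher and 3 lower, with a median of 0.04, and edgeR called 1. DESeq2 called 3, Tspan4 as higher and Dtx4 and Nampt as lower, and the exact test called 0. The gene called by edgeR was Tspan4, a tetraspanin, at 46.6, 44.7 and 45.6 CPM in WT1 to WT3 and 62.8, 66.9 and 68.5 CPM in KO1 to KO3 (log2 fold change 0.52, SE 0.06, adjusted p 0.0446). The most abundant of this list, Tsc22d3, differed by a log2 fold change of 0.07 (SE 0.29), at an adjusted p of 0.903, with WT libraries from 129.8 to 264.1 CPM.

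Of 8 C/EBP and related bZIP genes 7 were tested, all 7 were higher in KO by the estimate, with a median log2 fold change of 0.20. In edgeR 0 were called, with 3 under 0.05 before adjustment, while DESeq2 called 3, Atf4, Cebpb and Ddit3, and the exact test 1, Cebpb. Atf4, the most abundant, differed by 0.36 on the log2 scale (SE 0.06, adjusted p 0.0537). All 8 of the G2/M partners of Wee1 were tested and higher by the estimate (median 0.23). In edgeR 0 were called, with 3 under 0.05 before adjustment, and DESeq2 called 2, Cdc25b and Pkmyt1. Cdc25b, the phosphatase that reverses the action of Wee1 and the most abundant of them, differed by 0.18 on the log2 scale (SE 0.06, adjusted p 0.128). Among 11 partners of Por, 9 were higher and 2 lower (median 0.17). In edgeR 0 were called, with 6 under 0.05 before adjustment, and DESeq2 called 5, Cyb5a, Cyb5r3, Cyp2f2, Cyp2s1 and Hmox1. The club cell cytochrome Cyp2f2, the most abundant of them, was at 3353, 3671 and 3266 CPM in WT1 to WT3 and at 3849, 4908 and 4989 CPM in KO1 to KO3 (log2 fold change 0.36, SE 0.13, adjusted p 0.152). As in Por itself, all KO libraries were above WT and KO1 was the closest to it. With DESeq2, the calls among the core clock genes were Nr1d1, Clock and Arntl.

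Markers of cell types and of handling also differed between libraries, some lists with the genotype and others, such as the erythroid list, only in KO2 and KO3. Their part in the results was not tested. Of all tested genes, the quasi-likelihood test called 2.28% and the exact test 1.12%, and 27.3% were under 0.05 before adjustment. DESeq2 called 21.9% of the genes to which it gave an adjusted p. The 9 alveolar type 2 genes were all higher in KO by the estimate, 4 of them called by the quasi-likelihood test (7 by DESeq2, 0 by the exact test), and summed to 21773 to 22786 CPM in WT and 30959 to 32645 CPM in KO. The 5 club cell genes, 4 higher and 1 lower, summed to 28482 to 33371 CPM in WT and 37806 to 50030 CPM in KO, with KO1 the lowest of the KO libraries. The 8 adipocyte genes were all lower, 1 of them called by the quasi-likelihood test (7 by DESeq2, 6 by the exact test), and summed to 625.6 to 1149 CPM in WT and 99.6 to 282.1 CPM in KO. The 8 cardiomyocyte genes were all lower, 0 called by the quasi-likelihood test (7 under 0.05 before adjustment, 4 called by DESeq2, 2 by the exact test), and summed to 2292 to 6558 CPM in WT and 1140 to 1312 CPM in KO. The 12 immediate early genes were all higher, 0 called by the quasi-likelihood test (7 under 0.05 before adjustment, 7 called by DESeq2, 4 by the exact test), and summed to 956.5 to 1360 CPM in WT, 1910 CPM in KO1 and 3682 and 3700 CPM in KO2 and KO3. The 7 erythroid genes summed to 2400 to 5523 CPM in WT, 3967 CPM in KO1 and 18997 and 19742 CPM in KO2 and KO3, and the 7 hepatocyte genes to 2.93 to 3.96 CPM in WT, 6.43 CPM in KO1 and 44.4 and 44.3 CPM in KO2 and KO3. The 6 B cell genes overlapped between the genotypes, at 572.9 to 717.1 CPM in WT and 564.6 to 750.0 CPM in KO. Of the club cell, erythroid, hepatocyte and B cell genes the quasi-likelihood test called 0, with 2, 2, 5 and 2 under 0.05 before adjustment, while DESeq2 called 2, 0, 5 and 2 and the exact test 0, 0, 4 and 0. No gene of these lists was at 0 in every library of a genotype. Immediate early, erythroid, hepatocyte and club cell transcripts were lower in KO1 than in KO2 and KO3, as were 8 of the 10 genes, all but Nfil3 and Usp2, which were higher in KO1. Adipocyte and B cell transcripts were also lower in KO1 than in KO2 and KO3, which for adipocyte transcripts put KO1 farther from WT, and alveolar type 2 and cardiomyocyte transcripts were higher in KO1.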

How the data were processed

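Per the labels and the study's methods, the authors trimmed reads, aligned them to GRCm38 with STAR 2.5.3a and counted them per gene with HTSeq 0.6.0; the deposited values are raw counts, with no normalization. The annotation release and strand setting are not given in the sources used here. All 6 library columns were used, and 0 rows named no gene. The tests used edgeR 4.0.16 (R 4.3.3), with filterByExpr, TMM scaling and the quasi-likelihood test over 18660 genes with Benjamini-Hochberg adjustment, called at 0.05. KO2 and KO3 were summed. SEs came from the estimate and its F statistic. On simulated counts the test missed more of the smaller changes than of the larger ones and called some unchanged genes. Positions, exon lengths and GC content came from GENCODE M21 (GRCm38), which held 97.5% of the genes. Alternatives covered the scaling, filter, tool (DESeq2 1.42.0), sample merging, replicate block, squamous term, length and GC correction, and left-out libraries. The 10 genes, the lists and the tests were chosen with earlier results of these data known. The named genes were the 10, and of the 6 gene lists other than markers the genes called by the main test and the most abundant gene, with Nr1d1 and Clock as partners and Zpbp2 as the check of the labels. Arntl and the other core clock genes besides Nr1d1 and Clock, Sphk2, the Cyp2c genes and genes called only by another tool were added after their values were seen. The lung markers are named as the check of the tissue. P-values of the fits set the difference between the genotypes against the spread between these samples.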

Additional observations from a re-analysis of the deposited data

How the results depend on the processing

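None of the 10 genes changed direction under any of the 17 alternatives, but their size moved. On the log2 scale Dbp ranged from 1.05 to 1.56, Nfil3 from -0.59 to -0.34, Bhlhe41 from 0.57 to 1.05, Ciart from 0.30 to 0.63, Bhlhe40 from 0.32 to 0.47 and Usp2 from 0.21 to 0.47. Without KO2 and KO3 Wee1 was at 0.017, Tef at 0.16, Hlf at 0.21 and Por at 0.14, and without KO1 at 0.43, 0.63, 0.63 and 0.44. The number of genes that passed moved with the settings. The comparison had 2 KO samples and calls close to the threshold, and why the number moved was not tested.

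Against 426 genes in the table, 1 of the 10 and 1 core clock gene, the numbers called were 3402, 7 and 2 with the 6 libraries kept separate. They were 3889, 7 and 3 with DESeq2, 2345, 5 and 3 with the squamous term, 909, 2 and 2 with at least 10 counts in every sample, and 0, 0 and 0 both with the length and GC correction and without KO2 and KO3, where 4300 and 5070 genes had an unadjusted p under 0.05. The exact test called 209 genes and 0 core clock genes. With library size alone the higher share of the calls went from 60.3% to 38.2%, and with the exact test to 30.1%. Leaving out 1 library at a time gave 0 to 418 genes, 0 to 2 of the 10 and 0 to 1 core clock genes, and 0 genes of the table were called without WT1, WT2 or WT3, where 3642, 3346 and 4193 genes had an unadjusted p under 0.05. Without KO1 17 genes and 0 core clock genes were called. Fits that leave 1 KO sample assume that it varies like the WT samples. The cause was not tested.

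Genes that gained a call did so at log2 fold changes of 0.50 (Hlf), -0.49 (Nfil3), 0.53 (Ciart), 0.42 (Bhlhe40), 0.91 (Bhlhe41) and 0.35 (Por) with the 6 libraries kept separate. With DESeq2 these were 0.44, -0.45, 0.48, 0.41, 0.84 and 0.30, and with the squamous term 0.47 (Hlf), -0.49 (Nfil3), 0.53 (Ciart) and 0.87 (Bhlhe41). Bhlhe41 also passed at 0.84 with at least 10 counts in every sample and at 1.05 without KO1, in a range of 0.82 to 1.05 without 1 library. Dbp lost its call at 1.16 with the length and GC correction and at 1.05 without KO2 and KO3, and ranged from 1.32 to 1.56 without 1 library.

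The replicate numbers are shared only as names: deviations of same-numbered libraries correlated at -0.48, 0.56 and -0.65, and not every library correlated best with its own number. The fit with a replicate block on the 6 libraries called 1157 genes, 4 of the 10 and 2 core clock genes. Of these 4, Dbp, Bhlhe40 (0.43) and Bhlhe41 (0.89) also passed with the 6 libraries kept separate and no block, while Tef (0.48) did not. Hlf, Nfil3, Ciart and Por passed without the block but not with it (edgeR adjusted p 0.0763, 0.067, 0.0722 and 0.0859).

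The differences in log2 ratio were 2.14 (Dbp to Nfil3), 1.45 (summed factors to Nfil3) and 1.08 (Dbp to Nr1d1) without KO1 and 1.39, 0.73 and 0.53 without KO2 and KO3. The Bhlhe40 to Bhlhe41 difference was -0.59 without KO1 and -0.21 without KO2 and KO3. Without 1 library the other differences ranged from 1.73 to 2.14, from 1.02 to 1.45 and from 0.77 to 1.08. The Wee1 difference was -0.075 within WT3 and KO1, a setting chosen after seeing the data.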
